A study of Mus musculus with 6 samples.

Results

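The genes described here are the agouti gene a, the long non-coding RNA gene Gm42031 and the thiolase gene Acat3, together with Nnt, Wdfy1 and Pla2g2a. These 6 genes were taken by name from a deposited table of 54532 genes, in which 7 entries carry one of the names because Nnt has 2 entries. The genes a, Gm42031 and Acat3 were selected on their counts in these 6 libraries, which were nearly present against absent between the labels, so their difference is given as a description, with no test. Nnt, Wdfy1 and Pla2g2a were picked because they are known to vary between inbred mouse strains.

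The counts come from poly-A RNA sequencing of the distal colon of mice. There are 6 libraries, of which 3 carry the label Itgbl1 -/- (KO) and 3 the label wild type (WT). The mice of both labels had drunk dextran sulfate sodium (DSS), which injures the colonic epithelium, as a 3% solution for 7 days. The sources used here do not give strain, sex, age, breeding or the way the Itgbl1 allele was made. Separate animals are implied only by replicate numbers, so a p-value measures the spread between samples that may be technical.

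Coat colour genes and metabolic genes with known alleles are often used to recognise the strain behind a mouse. Agouti protein is a secreted antagonist of melanocortin receptors that switches hair pigment cells from black to yellow pigment, and common laboratory strains differ in the allele they carry. Nnt encodes the proton-pumping transhydrogenase of the inner mitochondrial membrane, which makes mitochondrial NADPH, and the C57BL/6J substrain carries a deletion within it. Pla2g2a encodes a secreted phospholipase A2 of intestinal Paneth cells and is disrupted by a frameshift in several strains, including C57BL/6. Wdfy1 encodes an endosomal adaptor that links Toll-like receptors TLR3 and TLR4 to their adaptor TRIF. Acat3 is a close relative of Acat2, the cytosolic acetoacetyl-CoA thiolase that opens the mevalonate pathway.

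The label Itgbl1 -/- was not borne out by the targeted gene, but the gene had too few reads under both labels to decide it. Itgbl1 had 12, 4 and 10 reads in the KO libraries, against 19, 6 and 5 reads in the WT libraries, and the log2 ratio was -0.19 (SE 0.77; edgeR adjusted p = 0.90). KO and WT therefore name labels throughout, and every direction below is one between labels. Library totals were 13326970 to 17465473 counts in KO libraries and 16800399 to 18321389 in WT libraries (two-sided exact permutation p = 0.5, where the smallest possible p is 0.1). The share of mitochondrial counts was 12.8% in KO replicate 3, 3.94% and 4.88% in the other KO libraries and 3.53% to 4.14% in WT libraries. The tissue label was checked on 10 epithelial markers, whose summed CPM (counts scaled to a common library total) were 1242, 8496 and 82.0 in the KO libraries and 17172, 24715 and 18728 in the WT libraries. Colonic epithelial markers were thus abundant in WT libraries and close to missing in KO replicate 3. In bulk tissue, fewer cells of a type and less RNA per cell cannot be told apart.

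Of the 16861 genes with enough reads to test, edgeR's quasi-likelihood test called 0 between the labels at a Benjamini-Hochberg adjusted p under 0.05 (0%). The smallest adjusted p was 0.094, while 4059 genes (24.1%) had an unadjusted p under 0.05. Of these, 1992 (11.8%) were higher and 2067 (12.3%) lower in KO. With upper-quartile scaling, which moved the median log2 ratio of all genes by 0.14, the split was 2673 higher and 1691 lower. DESeq2 called 2034 genes on the same counts, of 19254 to which it gave an adjusted p. With no filter on low counts edgeR called 192 of 30888 genes (0.622%). Libraries of the labels did not overlap in CPM at 5451 genes (32.3%), with KO above WT at 2533 (15.0%) and KO below WT at 2918 (17.3%). Log2 ratios were above 0 at 8954 genes (53.1%). Of the 6 genes described here, 5 passed the filter on low counts, and Nnt did not. The filter asks for about 10 reads in at least 3 libraries, so a, Gm42031 and Pla2g2a passed through the label in which they were high.

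Sequences of the start regions are shown for a and Gm42031, whose reads nearly all came from KO libraries. The promoter table used held these 2 of the 6 names. They come from RefSeq on GRCm38.p6, cover 250 bases before to 50 after the start, and are written on the gene's own strand. In the window of a, at chr2:155013320-155013619 on the plus strand, the capitals mark CCAAT, 181 bases before the start.
a: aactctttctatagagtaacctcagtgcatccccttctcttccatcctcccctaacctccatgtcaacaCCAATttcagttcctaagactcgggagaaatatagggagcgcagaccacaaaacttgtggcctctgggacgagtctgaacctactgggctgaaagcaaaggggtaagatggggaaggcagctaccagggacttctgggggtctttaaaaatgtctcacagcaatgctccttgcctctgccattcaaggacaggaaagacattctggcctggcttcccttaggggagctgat
The next sequence holds the 70 bases before the RefSeq start of Gm42031, at chr8:85131815-85131884 on the minus strand, with TATAAA in capitals. These 70 bases lie inside the annotated span of the gene, chr8 from 85125872 to 85132289, whose own start is further upstream.
Gm42031: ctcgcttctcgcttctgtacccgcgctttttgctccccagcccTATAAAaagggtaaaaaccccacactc
CCAAT occurs on either strand in 37.4% of the 32851 windows of the table and TATAAA in 13.6%. Neither window held the GC box GGGCGG, found in 35.7%. The window of a shared no run of 31 bases with any other promoter, whereas that of Gm42031 shared such runs with 5 others. The 70 bases printed for Gm42031 occur whole in the windows of Gm40843 and Gm43305 as well.

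The agouti gene a (ENSMUSG00000027596) spans chr2 from 154791402 to 155051012 on the plus strand of GRCm38, with 1169 exonic bases. It had 84, 75 and 69 reads in the KO libraries, against 5, 4 and 7 reads in the WT libraries. Scaled for depth this was 4.15, 4.29 and 5.36 CPM in KO libraries and 0.297, 0.253 and 0.413 CPM in WT libraries. The gene was read in every library, low under both labels, and the labels did not overlap. Its mean was 4.60 ± 0.663 CPM in KO and 0.321 ± 0.0825 CPM in WT (SD, n = 3 each), with a fitted log2 ratio of 3.81 (SE 0.48). The pooled read ratio was 14.0, with a 95% interval from 8.42 to 24.9 that covers counting error only.

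**Figure D1:**
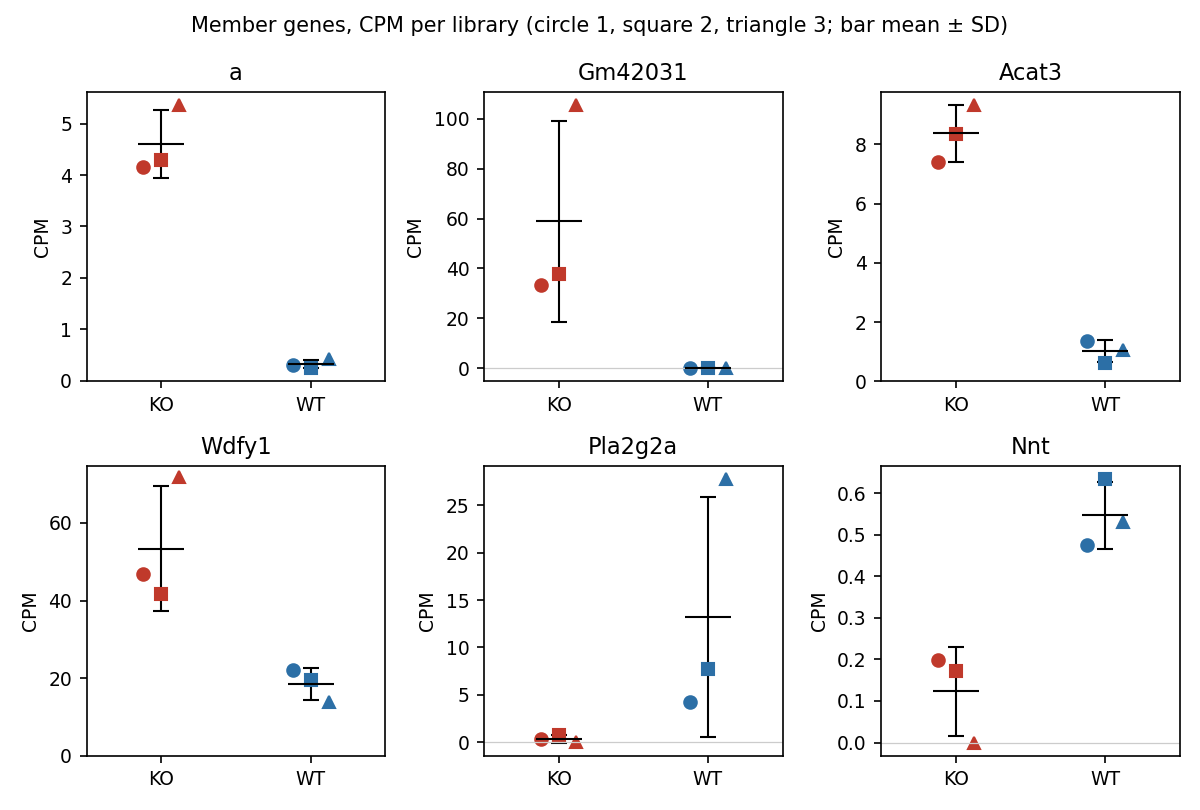
Each panel plots the CPM of 1 gene (vertical axis, linear) in the 3 KO libraries on the left and the 3 WT libraries on the right, with the horizontal bar at the mean and whiskers of 1 SD. The labels do not overlap in any panel: a, Gm42031, Acat3 and Wdfy1 are higher in KO, and Pla2g2a and Nnt are lower. Labels did not overlap at 32.3% of all tested genes. The genes a, Gm42031 and Acat3 were selected for their difference, and Nnt did not pass the filter on low counts.

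The annotated gene a begins far upstream of the start shown above. A long transcript of a starts inside Raly, which encodes an RNA-binding protein, and 147 of the 1169 exonic bases of a (12.6%) also belong to Raly on the same strand. Raly had 115, 202 and 181 CPM in KO libraries and 208, 172 and 168 CPM in WT libraries, with a log2 ratio of -0.14 and overlapping labels. Eif2s2, a translation initiation factor subunit on the opposite strand, also overlaps the span and stood at a log2 ratio of -1.18. The nearest tested genes outside it were Chmp4b at 96.6 kb (log2 ratio -0.12) and Ahcy at 8.30 kb (0.07), and the labels overlapped at both. No source used here says how reads in bases shared by several genes were assigned.

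Other genes of agouti and melanocortin signalling were mostly near the detection limit. Of 15 listed genes 8 were tested, and 1 of these 8 had an unadjusted p under 0.05 (12.5%, beside 24.1% of all tested genes). The receptors had few or no reads: Mc3r had none in any library, and Mc1r, the receptor of pigment cells, had 0, 0 and 18 reads in KO libraries and 0, 1 and 0 reads in WT libraries. Agrp, the brain relative of agouti, had 1.19, 0.801 and 1.32 CPM in KO libraries and 0.594, 0.570 and 0.295 CPM in WT libraries. Its log2 ratio was 1.17 with no overlap, in a gene that passed the filter on low counts through its KO libraries alone. Pcsk2, a protease that processes prohormones, had a log2 ratio of 1.42 (SE 0.55; edgeR adjusted p = 0.177). Atrn, a transmembrane protein that agouti needs to act in the coat, stood at -0.04.

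Pigment cell and skin markers were set beside agouti because hair follicles are its best known site. Of 8 melanocyte markers 2 were tested, and Tyr, Tyrp1, Mlana and Slc45a2 had no read in any library. Their summed level was 12.1 to 14.6 CPM in KO libraries and 7.15 to 9.92 CPM in WT libraries, with Mitf and Pmel as the main contributors. Of 9 dermal papilla and hair follicle markers 3 were tested, Krt71 and Hoxc13 had no read, and the sum was 41.4 to 182 CPM in KO and 13.3 to 37.0 CPM in WT. All 8 fibroblast markers had log2 ratios above 0, beside 53.1% of all tested genes. Of these 8, 5 had KO above WT without overlap, beside 15.0% of all tested genes. Fibroblast sums were 4229 to 6844 CPM in KO and 1485 to 2572 CPM in WT. The part of these cell types in the level of a was not tested.

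Gm42031 (ENSMUSG00000110386) is annotated as a long intergenic non-coding RNA at chr8 from 85125872 to 85132289 on the minus strand, with 1885 exonic bases in 1 transcript. It had 672, 661 and 1357 reads in the KO libraries, against 3, 1 and 0 reads in the WT libraries. The levels were 33.2, 37.8 and 105 CPM in KO libraries and 0.178, 0.0633 and 0 CPM in WT libraries. A count of 0 in WT replicate 3 allows up to 0.177 CPM, the value of 3 reads. All 3 KO libraries lay far above all 3 WT libraries, and KO replicate 3 was the highest. The mean was 58.8 ± 40.5 CPM in KO and 0.0805 ± 0.0904 CPM in WT (SD, n = 3 each), and the pooled reads were 2690 in KO and 4 in WT. Their ratio was 659, with a 95% counting interval from 257 to 2421, and the fitted log2 ratio was 9.38 (SE 0.91).

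Among all tested genes Gm42031 had the widest gap between the labels. The gap is the lowest library of the higher label minus the highest library of the lower label in log2 CPM, and it was 6.80 for Gm42031. The next were Igkv12-89, an immunoglobulin light chain segment, at 3.26 and BC100530 at 3.03, followed by a at 3.00 in the fourth place. Amy2a1, a pancreatic amylase, followed at 2.90, then Prok2, Ighg1, Arg1, Esm1 and Stfa2 at 2.53 or more. Acat3 came at place 16 with 2.34 and Wdfy1 at place 219 with 0.92. In the other direction Hao2 had the widest gap, 5.21, followed by Gsdmc3, Casp14, Gsdmcl2, Slc13a2, Tnni1, Slc7a9, Glod5, St8sia5 and Gm15401, and Pla2g2a stood at place 93 with 2.26.

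**Figure D2:**
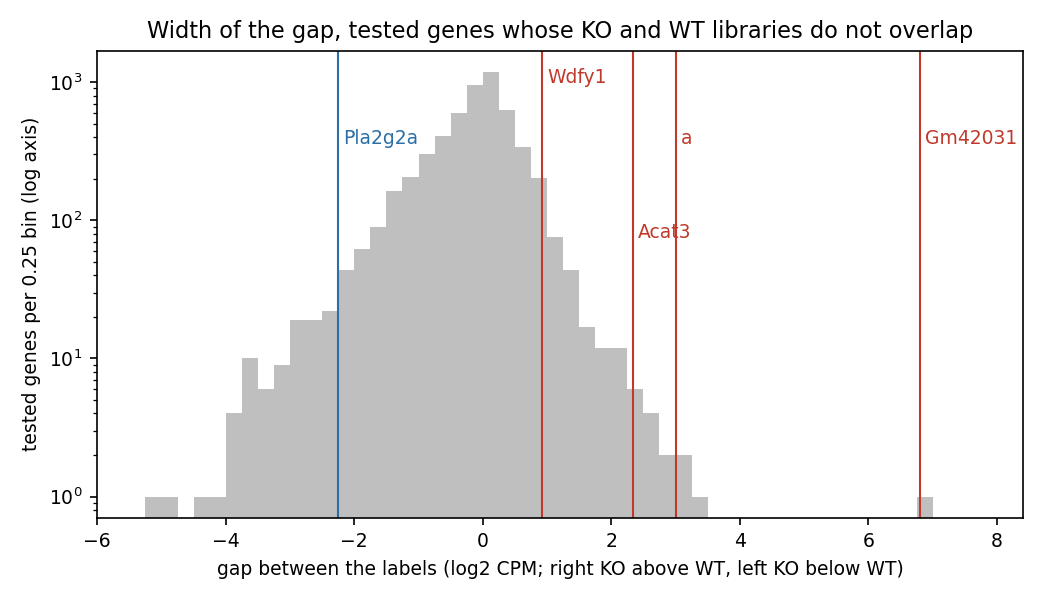
The histogram counts tested genes whose labels do not overlap (vertical axis, log scale) by the width of the gap in log2 CPM (horizontal axis), positive where KO lies above WT and negative where KO lies below. Gm42031, at 6.80, stands alone to the right, a and Acat3 lie in the thin right tail, Wdfy1 at 0.92 lies among many genes, and Pla2g2a lies in the left tail.

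Sequence of Gm42031 is spread over the genome. Of the 1328 distinct 31-base words in its transcript, 986 (74.2%) also occur in transcripts of 17 other genes on either strand. Of these 17 genes 12 were tested. In 7 of the 12 the KO libraries lay above the WT libraries without overlap, beside 15.0% of all tested genes. None lay below (17.3% of all tested genes). Of the 7, Gm4316 and Gm26880 passed the filter on low counts through their KO libraries alone. Gm42031 itself was selected for its difference, so this count is a description, with no test. Gm43305 on chromosome 14 holds 60.9% of the words and had 74.1, 335 and 191 CPM in KO libraries, against 24.9, 9.81 and 6.31 CPM in WT libraries. Cep85, a centrosome protein gene on chromosome 4 with 17.9% of the words, had 314, 892 and 2372 CPM in KO libraries, against 115, 50.8 and 68.2 CPM in WT libraries. Cnbd2 on chromosome 2, with 21.4%, had 11.8, 38.4 and 61.9 CPM in KO libraries, against 4.40, 2.53 and 3.36 CPM in WT libraries.

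The remaining genes that share words with Gm42031 were less far apart. Gm4316 had 42, 12 and 11 reads in KO libraries and 0, 1 and 0 reads in WT libraries. The log2 ratios were 2.35 for Gm26880, 2.01 for Gm37416 and 0.62 for Miga1, whose labels did not overlap either. The labels overlapped for Chd9, AI506816, Apobec3, Gm10524 and Snx6. These 17 genes were found by their sequence, after the levels of Gm42031 were known. Whether reads of one were counted for another was not tested, and no source used here says how reads with several places in the genome were counted. The genes beside Gm42031 on chromosome 8 were Zfp791, a zinc finger gene at 2.78 kb (log2 ratio -0.75), and Vps35, a retromer subunit at 128 kb (-0.20), and the labels overlapped at both.

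Acat3 (ENSMUSG00000062480) lies at chr17 from 12923813 to 12940600 on the minus strand, with 2427 exonic bases. It had 150, 146 and 120 reads in the KO libraries, against 23, 10 and 18 reads in the WT libraries. The levels were 7.41, 8.35 and 9.33 CPM in KO libraries and 1.37, 0.633 and 1.06 CPM in WT libraries. The labels did not overlap, and Acat3 was read in every library. The mean was 8.36 ± 0.957 CPM in KO and 1.02 ± 0.369 CPM in WT (SD, n = 3 each), with a log2 ratio of 3.02 (SE 0.44) and a pooled read ratio of 7.995 (95% counting interval 5.97 to 10.9).

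Acat2, the neighbour and closest relative of Acat3, is nearly identical to it in coding sequence. The coding sequences are 1191 bases each in GENCODE M21 and match at 1164 positions (97.7%), with no gaps. The first 120 coding bases hold 11 of the differences, in capitals, followed by a stretch without any.
Acat3: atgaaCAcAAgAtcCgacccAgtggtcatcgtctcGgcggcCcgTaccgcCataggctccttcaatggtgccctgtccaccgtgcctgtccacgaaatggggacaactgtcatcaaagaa
Acat2: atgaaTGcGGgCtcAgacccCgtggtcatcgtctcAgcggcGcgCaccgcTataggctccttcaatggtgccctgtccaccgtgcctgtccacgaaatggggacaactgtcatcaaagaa
Acat2 lies 2.29 kb away and had 17.3, 11.5 and 17.2 CPM in KO libraries, against 13.4, 40.2 and 24.1 CPM in WT libraries. The labels overlapped, and the log2 ratio was -0.76 (SE 0.43), so the pair of relatives stood on opposite sides of 0. Of the 31-base words of Acat3 46.9% also occur in Acat2. Longer reads from these stretches may still cover a difference, and whether reads of 1 gene were counted for the other was not tested. The count of Acat3 is uncertain in this respect. On its other strand Acat3 shares 571 exonic bases (23.5%) with Tcp1, a chaperonin subunit, which had 126, 164 and 226 CPM in KO libraries and 103, 108 and 106 CPM in WT libraries. Whether counting used the strand is not given. The next tested gene, the mitochondrial ribosome gene Mrpl18 at 7.47 kb, stood at 0.04.

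Enzymes around Acat3 in thiolase, ketone body and mevalonate metabolism stood mostly lower in KO. All 21 were tested, 17 had log2 ratios below 0, and the median was -1.15 beside 0.06 over all tested genes. At an unadjusted p under 0.05, 11 were lower and 1 was higher (57.1%, beside 24.1% of all tested genes), and none passed the adjusted threshold. The epithelial markers were lower in the same libraries, with a median log2 ratio of -2.62. At 9 of 10 KO lay below WT without overlap, beside 17.3% of all tested genes. The part of epithelial content in the level of these enzymes was not tested. Fdft1, which makes squalene, had 50.0, 66.1 and 33.3 CPM in KO libraries, against 119, 211 and 159 CPM in WT libraries (log2 ratio -1.71, SE 0.36; edgeR adjusted p = 0.094). Sqle, which oxidises squalene, stood at -1.82, also without overlap. Acaa1b, a peroxisomal thiolase and the 1 gene counted as higher, stood at 3.69, also without overlap. It passed the filter on low counts through its KO libraries alone. Acat1, the mitochondrial acetoacetyl-CoA thiolase, stood at -0.83 with overlapping labels.

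Nnt (ENSMUSG00000025453) lies at chr13 from 119335448 to 119408997 on the minus strand, with 7037 exonic bases. It had 4, 3 and 0 reads in the KO libraries, against 8, 10 and 9 reads in the WT libraries. The levels were 0.198, 0.172 and 0 CPM in KO libraries and 0.475, 0.633 and 0.531 CPM in WT libraries. The labels did not overlap, but the gene was close to the detection limit in all 6 libraries, and the 0 of KO replicate 3 allows up to 0.233 CPM. The mean was 0.123 ± 0.107 CPM in KO and 0.546 ± 0.0798 CPM in WT (SD, n = 3 each), and the pooled read ratio was 0.254 (95% counting interval 0.0934 to 0.598). In an edgeR fit without the filter the log2 ratio was -2.07 (SE 1.35; adjusted p = 0.445), so no difference was detected with these few reads. A second entry named Nnt shares 3339 of the exonic bases (47.4%) and had 0 reads in all libraries. How reads in these shared bases were assigned is not given, and their part in the low counts was not tested.

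Genes that share the task of Nnt in mitochondrial NADPH supply and peroxide defence showed no common direction. All 22 were tested, 15 had log2 ratios above 0, and the median was 0.18. At an unadjusted p under 0.05, 2 were higher and 2 lower (18.2%, beside 24.1% of all tested genes). Me2, the mitochondrial malic enzyme, had 33.6, 31.6 and 22.9 CPM in KO libraries and 70.8, 154 and 108 CPM in WT libraries (log2 ratio -1.92, SE 0.35; edgeR adjusted p = 0.094). Sod2, the mitochondrial superoxide dismutase, stood at 2.08 and the folate enzyme Aldh1l2 at 1.65, and Txn2, mitochondrial thioredoxin, at -0.82. The nearest tested genes were Paip1 at 19.6 kb, a regulator of translation (log2 ratio 0.72), and the growth factor Fgf10 at 543 kb (1.01), both with KO above WT without overlap, opposite in direction to Nnt.

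Wdfy1 (ENSMUSG00000073643) lies at chr1 from 79702262 to 79776143 on the minus strand, with 6488 exonic bases, and was well covered under both labels. It had 946, 730 and 923 reads in the KO libraries, against 371, 309 and 236 reads in the WT libraries. The levels were 46.7, 41.8 and 71.7 CPM in KO libraries and 22.05, 19.6 and 13.9 CPM in WT libraries. Every KO library lay above every WT library, and KO replicate 3 was the highest. The mean was 53.4 ± 16.1 CPM in KO and 18.5 ± 4.17 CPM in WT (SD, n = 3 each), with a log2 ratio of 1.53 (SE 0.31). The edgeR adjusted p was 0.094, which misses the threshold, whereas DESeq2 gave an adjusted p of 0.00597 and edgeR without KO replicate 2 one of 0.0355. Many other genes passed in these runs: DESeq2 called 2034 of 19254 genes, and edgeR without KO replicate 2 called 1813 of 17449.

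Relatives and partners of Wdfy1 lay on both sides of 0. Of 17 genes of the WDFY family and the TLR3 and TLR4 adaptor path, all tested, 10 had log2 ratios below 0 and the median was -0.10. At an unadjusted p under 0.05, 1 was higher and 3 were lower (23.5%, beside 24.1% of all tested genes). Tlr3, the receptor for double-stranded RNA, had 14.9, 13.3 and 21.2 CPM in KO libraries and 29.1, 54.0 and 59.0 CPM in WT libraries (log2 ratio -1.53, SE 0.35; edgeR adjusted p = 0.0983). Ticam1, which encodes TRIF, stood at -1.07, and Cd14, a co-receptor for lipopolysaccharide, at 1.62. Wdfy2, the closest relative, stood at 0.05 with overlapping labels. On chromosome 1 Serpine2, a protease inhibitor at 18.1 kb, stood at 3.10 and Ap1s3, an adaptor subunit at 30.3 kb, at -2.35, both without overlap and on opposite sides of 0. Mrpl44, which shares 126 exonic bases (1.94%) on the other strand, stood at -0.21.

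Pla2g2a (ENSMUSG00000058908) lies at chr4 from 138831857 to 138835186 on the plus strand, with 928 exonic bases, and is annotated as a polymorphic pseudogene, a gene that is disrupted in the reference strain and intact in others. It had 7, 14 and 0 reads in the KO libraries, against 72, 122 and 470 reads in the WT libraries. The levels were 0.346, 0.801 and 0 CPM in KO libraries and 4.28, 7.72 and 27.7 CPM in WT libraries. The labels did not overlap, the WT libraries differed widely among themselves, and the 0 of KO replicate 3 allows up to 0.233 CPM. The mean was 0.382 ± 0.402 CPM in KO and 13.2 ± 12.7 CPM in WT (SD, n = 3 each), with a pooled read ratio of 0.0310 (95% counting interval 0.0191 to 0.0478). The log2 ratio was -5.04 (SE 1.15; edgeR adjusted p = 0.0983). This misses the threshold, in a gene that passed the filter on low counts through its WT libraries alone, whereas DESeq2 gave an adjusted p of 1.47e-05 and edgeR without KO replicate 2 one of 0.0434. These 2 runs called 2034 of 19254 and 1813 of 17449 genes.

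Because Pla2g2a is known from Paneth cells, epithelial and Paneth cell markers were set beside it. Of the 10 epithelial markers all had log2 ratios below 0. At 9 of them KO lay below WT without overlap, beside 17.3% of all tested genes. KO replicate 2 had the highest Pla2g2a level of the KO libraries and also their highest epithelial sum. Among WT libraries the orders differed: replicate 3 had the highest Pla2g2a level and replicate 2 the highest epithelial sum. Of 9 Paneth cell markers 3 were tested and Defa17, Defa21, Defa22 and Defa30 had no read in any library. The Paneth sum was 11.6, 126 and 2.41 CPM in KO libraries and 19.6, 9.24 and 11.1 CPM in WT libraries, with Ang4 supplying 119 CPM in KO replicate 2. Goblet cell markers summed to 507, 14220 and 29.8 CPM in KO libraries and 15303, 14465 and 14039 CPM in WT libraries. Relative to the WT mean of log2 CPM, the median epithelial marker stood at -1.29, the median goblet marker at 0.01 and Pla2g2a at -3.42 in KO replicate 2. The part of epithelial content in the level of Pla2g2a was not tested.

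Of the phospholipase A2 family, 19 of 23 genes were tested, 12 had log2 ratios below 0 and the median was -0.70. At an unadjusted p under 0.05, 2 were higher and 5 lower (36.8%, beside 24.1% of all tested genes). Of the genes in this count, Pla2g4e passed the filter on low counts through its KO libraries alone. Pla2g2c, Pla2g3 and Pla2g4f reached the 3 libraries it asks for only with WT libraries, so the count is a description. Pla2g5, a secreted relative whose span contains Pla2g2a on the opposite strand without shared exonic bases, had 8.05, 4.18 and 6.29 CPM in KO libraries, against 21.6, 53.8 and 21.2 CPM in WT libraries (log2 ratio -2.38, SE 0.48; edgeR adjusted p = 0.094). Pla2g4f, a cytosolic member, stood at -3.60, Pla2g12a at 1.61 and Pla2g4e at 2.70, none with overlap. The neighbours outside Pla2g5 were Pla2g2d at 49.8 kb (log2 ratio 0.27) and Otud3 at 60.2 kb (-0.26), with overlapping labels.

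Levels of different genes were set side by side per exonic length, as TPM (counts divided by deposited gene length, scaled to a common total). In KO libraries the order was Gm42031 (47.0 to 121 TPM), Wdfy1 (15.1 to 23.9), a (8.59 to 11.5), Acat3 (8.06 to 9.92), Pla2g2a (0 to 2.02) and Nnt (0 to 0.0912). The neighbours a and Acat3, and Pla2g2a and Nnt, had overlapping ranges. In WT libraries the order was Pla2g2a (10.7 to 80.7 TPM), Wdfy1 (5.79 to 7.91), Acat3 (0.641 to 1.31), a (0.532 to 0.954), Nnt (0.157 to 0.221) and Gm42031 (0 to 0.220). There a and Acat3, and Nnt and Gm42031, overlapped, and Gm42031 held the top place under KO and the bottom place under WT.

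KO replicate 3, the library with the least epithelial signal and the largest mitochondrial share, was the extreme KO library for all 6 genes in CPM. It had the highest CPM of a, Gm42031, Acat3 and Wdfy1 and no read of Nnt or Pla2g2a. In TPM, KO replicate 1 was the highest for a (11.5, against 9.90 in KO replicate 3) and for Acat3 (9.92, against 8.30). Without KO replicate 3 the log2 ratios were 3.66 for a, 8.64 for Gm42031, 2.92 for Acat3, 1.23 for Wdfy1 and -4.54 for Pla2g2a. The log2 CPM difference of Nnt was -1.15 without KO replicate 3 and -1.57 with it. Relative to the WT mean of log2 CPM, a stood at 3.29, 3.34 and 3.65 and Acat3 at 2.78, 2.95 and 3.11 in the KO libraries. In the same libraries the median epithelial marker stood at -3.87, -1.29 and -8.38. Both genes were chosen for their difference in these libraries, and the part of epithelial content in their levels was not tested.

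**Figure D3:**
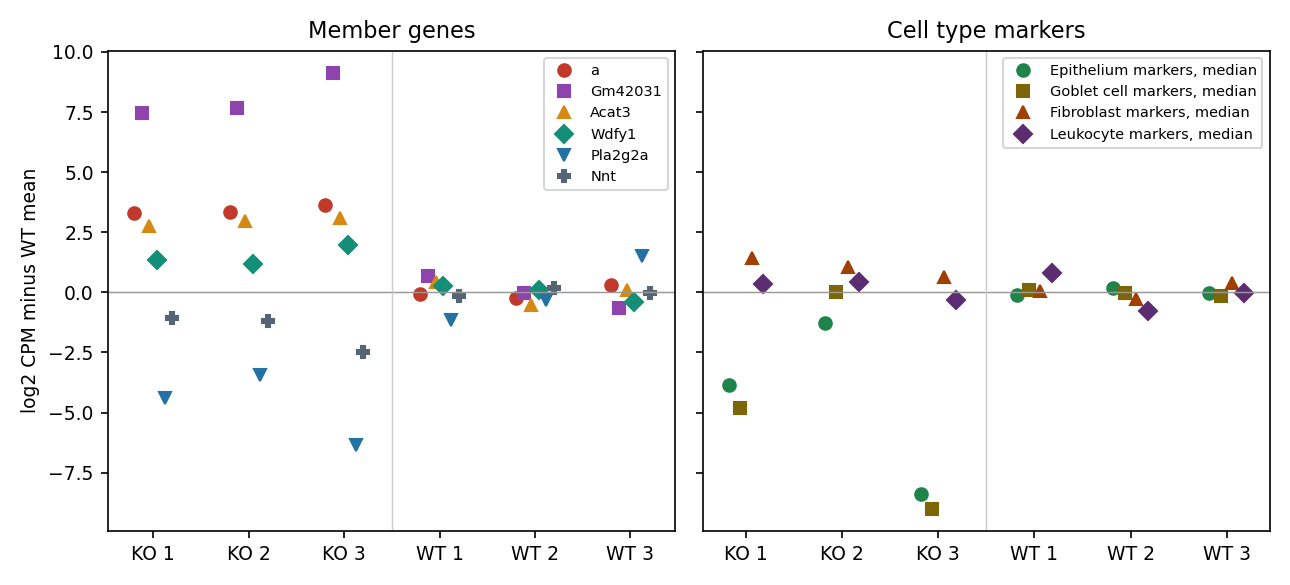
The vertical axis gives log2 CPM minus the mean of the 3 WT libraries, for the 6 genes on the left and for the median marker of 4 cell types on the right, in each library along the horizontal axis. In the KO libraries a and Acat3 lie between 2.78 and 3.65, and the median epithelial marker lies between -8.38 and -1.29.

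Genes lying within 1 Mb of a member were counted to see whether whole regions stood apart. Of 156 such tested genes 23 had KO above and 35 had KO below WT without overlap, together 37.2% beside 32.3% of all tested genes. Their median log2 ratio was -0.12. By gene the shares were 33.3% of 33 near a, 19.1% of 47 near Gm42031 and 45.5% of 22 near Acat3, where the share within 500 kb was 23.1% of 13. They were 46.7% of 15 near Nnt, 66.7% of 9 near Wdfy1 and 50% of 30 near Pla2g2a, with both directions present near every member. No member lies on chromosome 14 with Itgbl1, and of 27 tested genes within 5 Mb of Itgbl1 9 did not overlap (33.3%).

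**Figure D4:**
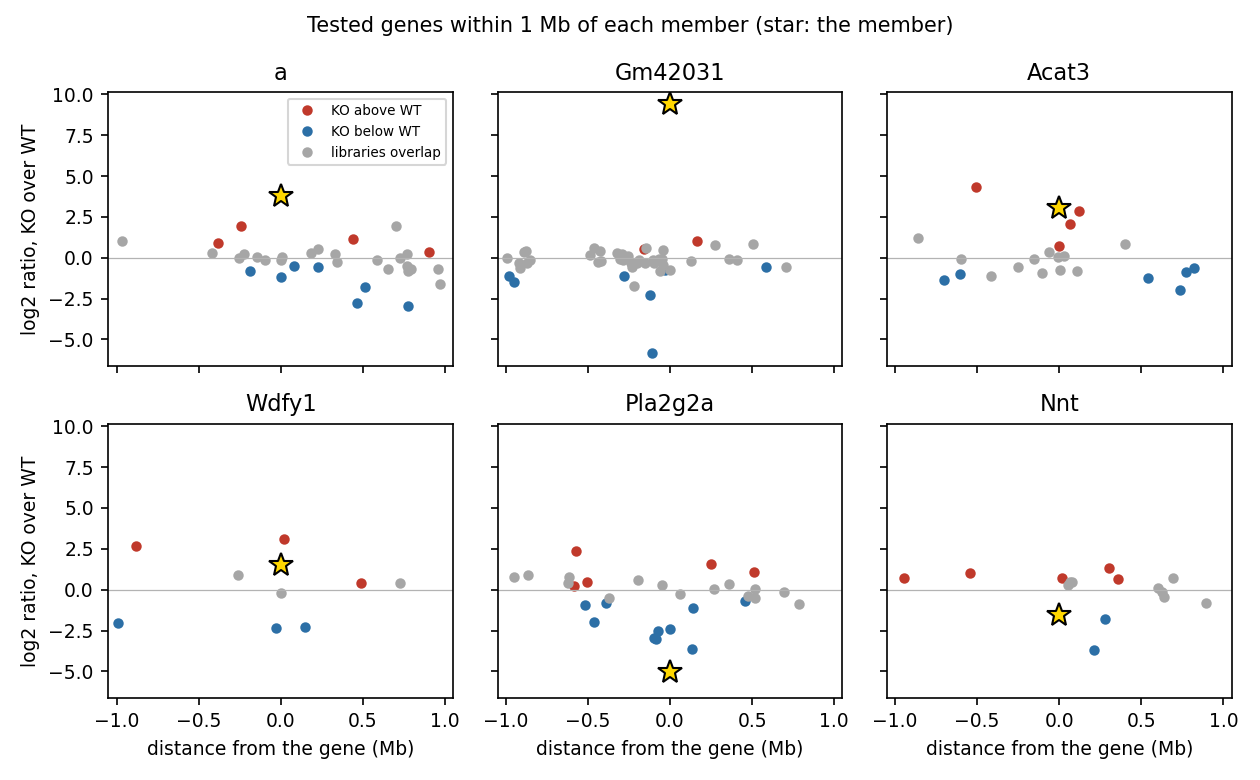
Each panel plots the log2 ratio of KO over WT (vertical axis) against distance from a member in Mb (horizontal axis) for tested genes within 1 Mb, coloured by whether and how the labels are apart. The star marks the member itself (for Nnt the difference of mean log2 CPM, -1.57), and genes on both sides of 0 surround every star.

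Another 32 genes known for allele differences between mouse strains were listed beside the members. Of these 22 were tested, 11 on each side of 0, with a median of -0.05. The labels did not overlap at 7 (31.8%), beside 32.3% of all tested genes, and at an unadjusted p under 0.05 there were 5 higher and 4 lower (40.9%, beside 24.1%). Hc, complement component C5, which several strains lack, had 24, 108 and 62 reads in KO libraries, against 3, 2 and 3 reads in WT libraries (log2 ratio 4.59, SE 0.79; edgeR adjusted p = 0.094). Hc passed the filter on low counts through its KO libraries alone, so its p gives no separate support. Naip5, the flagellin sensor that sets resistance to Legionella, had 7.36, 17.7 and 6.92 CPM in KO libraries, against 43.0, 68.5 and 46.5 CPM in WT libraries (log2 ratio -2.30, SE 0.44; edgeR adjusted p = 0.094). Nlrp1b, the inflammasome sensor of anthrax lethal factor, stood at -3.27, Alad, a haem synthesis enzyme, at -1.19, and Disc1 at 1.19, all without overlap. The adult beta globin Hbb-bs stood at 3.62, with 75.4, 297 and 1279 CPM in KO libraries and 71.4, 20.1 and 42.5 CPM in WT libraries.

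**Figure D5:**
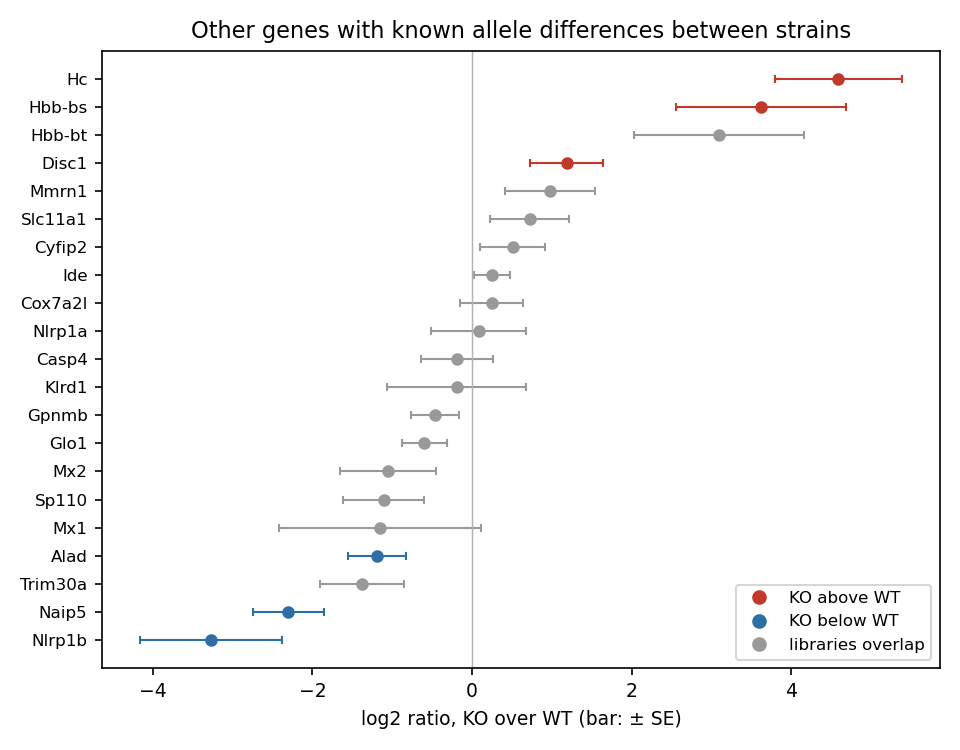
Tested genes of the strain list are ordered by the log2 ratio of KO over WT (horizontal axis, bars of 1 SE), from Hc at the top (4.59) to Nlrp1b at the bottom (-3.27). Red marks KO above WT and blue KO below WT without overlap, and grey marks overlapping libraries.

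The protein-coding genes most like each member over the 6 libraries were named by Pearson's r of log2 CPM, among 14344 or 14345 candidates. Nearest to a were Rcl1 (r = 0.995), Gpr173 (0.994) and Calu (0.993), and nearest to Acat3 were Rsu1, Cdr2 and Osr2 (0.996 to 0.998). For Gm42031 they were Oat (0.996), F5 and Wdr34, and for Wdfy1 Trim23 (0.992), Slc35e4 and Kti12. For Pla2g2a they were Parp11 (0.993), Scmh1 and Nsl1, and for Nnt Zfp239, Nhlrc3 and Ralgps2. Between 108 genes, for Wdfy1, and 566 genes, for Nnt, passed an r of 0.95. The 6 points fall under 2 labels, and epithelial content differs between them.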

How the data were processed

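Per the labels, poly-A RNA of distal colon was sequenced in 6 libraries (3 KO, 3 WT), with inserts selected at 370 to 420 bp and 1 date for all. The authors deposited whole-number read counts per gene, 1 column per library, with gene coordinates and lengths. The submitters' processing notes name the tools DESeq2, featureCounts 1.5.0-p3, HISAT2 2.0.5 and StringTie 1.3.3b and the builds GRCm38 and mm10, without roles. No source used here gives the strand setting or the handling of reads shared by genes.

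From these counts, genes were filtered by filterByExpr (minimum count 10, minimum total 15), scaled by TMM and tested by edgeR 4.0.16 (quasi-likelihood, robust) in R 4.3.3, with no covariates and Benjamini-Hochberg adjustment over 16861 genes at 0.05. CPM uses TMM-scaled library sizes, and log2 CPM adds a prior count of 2. Standard errors come from the F statistic, ratio intervals are exact at the 95% level, and single values per library were compared by exact permutation. DESeq2 1.42.0 and limma 3.58.1 were alternatives. Exons and transcripts come from GENCODE M21, whose spans match those of all 6 genes, and promoters from a RefSeq table of GRCm38.p6. Shared sequence was found as identical words of 31 bases.

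The members and lists were chosen with earlier results of these data known. Named genes are the 6 members, Itgbl1, the 3 genes most like each member, the 10 widest gaps in each direction, overlapping and nearest tested genes, up to 4 genes of smallest p per pathway list with the closest relatives, and up to 6 strain genes. Genes outside that rule, such as those sharing words with Gm42031 and single list members like Mc1r, were named after their values were seen. Deviations of same-numbered libraries did not go together, so the numbers were not taken as pairs. The values of some list genes, 1 of them left out of the plot of the strain list, are not reported here.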

Additional observations from a re-analysis of the deposited data

How the results depend on the processing

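No log2 ratio of a member changed sign under any alternative run. The count of genes past the adjusted threshold, 0 by edgeR, became 192 with no filter (29 higher, 163 lower in KO). It was 2034 of 19254 genes with DESeq2 (782 higher, 1252 lower). When 1 library was left out it was 0 to 1813, where the 1813 of 17449 genes (460 higher, 1353 lower) came without KO replicate 2. With the replicate number as a block it was 3, all lower. Same-numbered libraries had correlations of deviations of -0.201, 0.0866 and -0.0753, so they share only a number. With the block the log2 ratios were 3.82 for a, 9.21 for Gm42031, 3.07 for Acat3, 1.51 for Wdfy1 (adjusted p = 0.12) and -4.67 for Pla2g2a (adjusted p = 0.154).

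Wdfy1 passed the threshold with DESeq2 (1.505) and ranged from 1.23 to 1.65 with 1 library left out, with adjusted p from 0.00597 to 0.287 over all alternatives. Pla2g2a, which passed the filter on low counts through WT libraries alone, passed the threshold with DESeq2 (-5.12) and ranged from -6.08 to -3.91, with adjusted p from 1.47e-05 to 0.286. With 1 library left out a ranged from 3.64 to 4.01, Gm42031 from 8.64 to 10.57, Acat3 from 2.75 to 3.26 and the log2 CPM difference of Nnt from -1.79 to -1.15. Gm42031 was highest without WT replicate 1, which holds 3 of its 4 WT reads. The share of non-overlapping genes beside the members was 35.6% within 2 Mb and 36.7% within 500 kb, and that near Acat3 was 23.1% of 13 within 500 kb. Upper-quartile scaling moved the median log2 ratio of all genes by 0.14 and the split at an unadjusted p under 0.05 to 2673 higher and 1691 lower, against 1992 and 2067 with TMM. A filter of 10 reads in every library left out a, Gm42031 and Pla2g2a, and the block and limma fits gave no value for Nnt. Few reads limit the precision of Nnt in all libraries, of a, Gm42031 and Acat3 in WT libraries and of Pla2g2a in KO libraries. The causes of these changes were not tested.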
